A study of Mus musculus with 19 samples.

Results

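The genes described here are 9 genes of high-density lipoprotein (HDL) and plasma apolipoprotein metabolism, chosen by name out of the 35498 genes to which the deposited transcript estimates could be summed: Apoa1, Apoa2, Apoa4, Apoc1, Apoc3, Apom, Lcat, Scarb1 and Pltp. All 9 passed the filter on low counts that left 13594 genes for testing. RNA sequencing covered 19 bulk liver libraries from male C57BL/6J mice, which the labels place at 24 weeks without saying whether this is an age or a time on diet. By treatment label the groups are WSD+beta-Glucan (n = 4 libraries), WSD (n = 5), CTRL+beta-Glucan (n = 5) and CTRL (n = 5), and all share sex, strain and tissue. The labels do not spell out WSD or the composition, dose or duration of any diet. The series title concerns oat beta-glucan, a soluble cereal fibre, in the diet, with the gut microbiota and fatty liver disease as its subjects. Whether every library stands for its own mouse is not stated, so all p-values below refer to variation among the libraries, part of which may be technical.

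HDL is assembled outside cells on apolipoprotein A-I, the product of Apoa1, which the liver and the small intestine secrete. Cholesterol loaded onto it is esterified by the plasma enzyme lecithin-cholesterol acyltransferase (Lcat), the particles are enlarged and remodelled by phospholipid transfer protein (Pltp), and scavenger receptor BI (Scarb1) takes cholesteryl ester from HDL back into the hepatocyte. Apoa2 and Apoa4 encode further proteins of HDL and other lipoproteins, Apoc1 and Apoc3 encode small exchangeable proteins that slow the clearance of triglyceride-rich particles, and Apom encodes the carrier of sphingosine-1-phosphate on HDL.

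Apoa1, Apoc3 and Apoa4 lie within 14.9 kb of each other on chromosome 9 (Apoa1 at chr9:46228580-46230466, Apoc3 at chr9:46232933-46235636 on the minus strand, Apoa4 at chr9:46240696-46243459, build GRCm38), and Apom lies at chr17:35128997-35132050 on the minus strand. The promoters of Apoa1, Apom and Apoa4 are printed as those of 2 genes that were lower and 1 that was higher in WSD livers. That of Lcat, which was also lower, has an entry but is not printed. The printed windows come from RefSeq on build GRCm38.p6 and run from 250 bases before to 50 bases after the start annotated there (chr9:46228380-46228679, plus strand, for Apoa1; chr17:35131752-35132051, minus strand, for Apom; chr9:46240594-46240893, plus strand, for Apoa4). These RefSeq starts lie inside the gene spans given above, which come from GENCODE M21. Nearly all of the Apom window, with its capitals, and parts of the Apoa4 and Apoa1 windows are thus within those spans, not upstream of them. Capitals mark a match to GGTCA followed after any 2 bases by GGTC, a spaced repeat of the kind that nuclear receptors bind, searched on both strands. These letters were chosen after the Apom promoter had been read.
Apoa1: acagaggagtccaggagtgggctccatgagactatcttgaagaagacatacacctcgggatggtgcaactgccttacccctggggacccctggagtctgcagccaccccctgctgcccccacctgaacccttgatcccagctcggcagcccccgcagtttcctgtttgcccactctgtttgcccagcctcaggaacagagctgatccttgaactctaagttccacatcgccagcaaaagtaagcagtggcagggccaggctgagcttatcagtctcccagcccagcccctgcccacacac
Apom: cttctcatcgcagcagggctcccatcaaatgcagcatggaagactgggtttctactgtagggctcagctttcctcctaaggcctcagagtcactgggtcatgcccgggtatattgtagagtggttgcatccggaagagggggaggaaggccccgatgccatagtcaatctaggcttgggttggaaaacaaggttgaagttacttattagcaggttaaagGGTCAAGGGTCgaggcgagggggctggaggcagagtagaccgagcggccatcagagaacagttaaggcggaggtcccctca
Apoa4: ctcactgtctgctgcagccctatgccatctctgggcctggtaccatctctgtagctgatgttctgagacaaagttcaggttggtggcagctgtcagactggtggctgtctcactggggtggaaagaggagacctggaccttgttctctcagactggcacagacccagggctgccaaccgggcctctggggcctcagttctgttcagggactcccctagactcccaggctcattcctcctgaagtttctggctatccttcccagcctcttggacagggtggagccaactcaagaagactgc
The spaced repeat was found in the Apom window, and in 129 of 32851 RefSeq mouse promoter windows of the same length (0.393%). It was in none of the windows of the other 5 members that had an entry (6 of 9 had one), while the letters TATAAA, present in 13.6% of all windows, were in 1 of the 2 Apoa2 windows and in that of Pltp. Apoc1, Apoc3 and Scarb1 had no entry. As the letters of the repeat were chosen with the Apom promoter known, the match there tests nothing. Other forms of nuclear receptor site were not searched, so a window without this match may still hold one.

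The libraries held 17253823 to 23450232 estimated reads (median 19481377). The members with the fewest reads were Apom, with at least 817 in any library, and Pltp, with at least 998. Of 18 hepatocyte markers, 13 were lower in WSD than in CTRL livers and none was higher (median log2 fold change -0.58, against -0.04 for all tested genes, with TMM scaling). Scaled by library totals, 5 of them were lower and 3 higher, with a median of -0.11, against 0.43 for all genes. The summed level of these markers ranged from 93300 to 127000 CPM in WSD+beta-Glucan, from 82600 to 99600 CPM in WSD, from 141000 to 204000 CPM in CTRL+beta-Glucan and from 138000 to 173000 CPM in CTRL libraries. That of 16 macrophage markers ranged from 735 to 863, from 1190 to 1490, from 106 to 379 and from 111 to 295 CPM in the same order of groups. Of 12 endothelial markers 10 and of 12 stellate cell markers 9 were higher in WSD than in CTRL livers, and none was lower. Of 8 listed adipose tissue markers only 2 passed the filter on low counts, and these 2 were higher in WSD than in CTRL livers. Fewer cells of a type and less RNA per cell cannot be told apart in bulk tissue. Every library carries an S number in its title, whose meaning the labels do not give. The libraries titled 37 (WSD+beta-Glucan) and 39 and 40 (CTRL+beta-Glucan) have the lowest title numbers and carry S numbers 2, 3 and 1. Of these, S number 2 recurs in a WSD title. The fits were repeated without these 3 libraries and with a term for them.

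Per unit of transcript length the 9 genes together held 7.22 ± 0.54% of all length-normalized transcript estimates (TPM) in WSD+beta-Glucan, 7.44 ± 0.49% in WSD, 6.40 ± 0.46% in CTRL+beta-Glucan and 5.80 ± 0.59% in CTRL livers (SD, n = 4, 5, 5 and 5). Apoa2 was the most abundant member in each group, with a mean of 30405 ± 2558 TPM in WSD+beta-Glucan, 28414 ± 2442 TPM in WSD, 25904 ± 2071 TPM in CTRL+beta-Glucan and 23625 ± 3031 TPM in CTRL livers. In WSD livers Apoc1 came next, at 22576 ± 2073 TPM, and Apoa1 followed at 12186 ± 1088 TPM, with no overlap between the libraries of these 2 genes. In CTRL livers Apoa1 averaged 14841 ± 2124 TPM and Apoc1 13057 ± 2447 TPM, and their libraries overlapped. Apoc3 averaged 5999 ± 237 TPM in WSD and 4468 ± 376 TPM in CTRL livers, and Apoa4 4244 ± 1168 TPM in WSD and 938 ± 499 TPM in CTRL livers. Lcat followed at 363 ± 27.8 TPM in WSD and 479 ± 33.3 TPM in CTRL livers.

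The order of the 3 rarest members differed between the diets. Apom lay between 81.4 and 107 TPM in WSD and between 173 and 316 TPM in CTRL livers, and Scarb1 between 137 and 169 TPM in WSD and between 83.4 and 97.8 TPM in CTRL livers. Apom was thus below Scarb1 in every WSD library and above it in every CTRL library. The same held with beta-glucan, where Apom lay between 60.3 and 120 TPM in WSD+beta-Glucan and between 169 and 278 TPM in CTRL+beta-Glucan livers, and Scarb1 between 133 and 157 TPM in WSD+beta-Glucan and between 78.0 and 114 TPM in CTRL+beta-Glucan livers. Pltp, at 94.2 ± 10.4 TPM in WSD and 60.6 ± 23.5 TPM in CTRL livers, was not separated from Apom in WSD or from Scarb1 in CTRL livers.

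**Figure D1:**
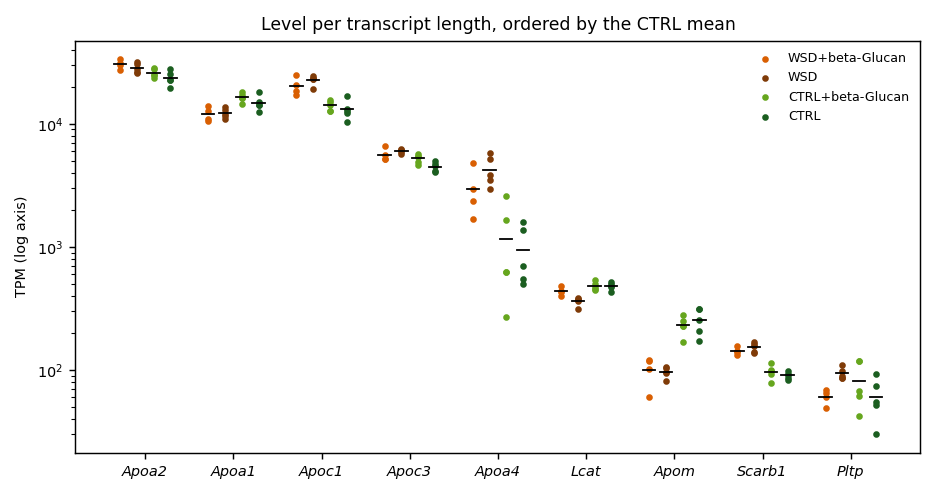
Level of each of the 9 genes in each of the 19 libraries in TPM (log axis), ordered by the CTRL mean, with colours for WSD+beta-Glucan, WSD, CTRL+beta-Glucan and CTRL and a bar at each group mean. Apoa2 is on top in every group, and Apom stands below Scarb1 in the WSD libraries and above it in the CTRL libraries.

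Levels between groups are given as CPM (estimated reads relative to the library's scaled total, with TMM, the trimmed mean of M values, setting the middle of the genes level between libraries), and a change is called where the edgeR quasi-likelihood test has a Benjamini-Hochberg adjusted p under 0.05 over all 13594 genes. Between WSD and CTRL livers 3 of the 9 members were called lower (Apom, Lcat and Apoa1), 1 higher (Apoa4) and 5 neither. Of all tested genes 27.1% were called lower and 26.0% higher, 53.0% in all, so 4 of 9 is near the background. The libraries of both groups did not overlap for 5 members, against 38.4% of all genes.

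Apoa1, the main protein of HDL, was at 8774, 6643, 7087, 8359 and 7236 CPM in WSD livers, against 12610, 11740, 16340, 11260 and 13060 CPM in CTRL livers. Every WSD library was below every CTRL library, with means of 7620 ± 904 CPM in WSD and 13000 ± 1993 CPM in CTRL livers. The log2 fold change was -0.77 ± 0.13 (SE; edgeR adjusted p = 7.43e-05), which is 58.6% of the CTRL level. Apoa2, the second HDL protein, did not pass the test, with 7324 ± 891 CPM in WSD and 8438 ± 842 CPM in CTRL livers. Its log2 fold change was -0.20, with a 95% interval of -0.45 to 0.04 (edgeR adjusted p = 0.156). The ratio of Apoa1 to Apoa2 within a library, which needs no scaling between libraries, ran from 0.418 to 0.436 in WSD and from 0.541 to 0.803 in CTRL livers on the TPM scale. With beta-glucan it ran from 0.315 to 0.443 in WSD+beta-Glucan and from 0.614 to 0.655 in CTRL+beta-Glucan livers, again without overlap.

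Apoa4 encodes a lipid-binding apolipoprotein made mainly by the intestine in humans and also by the liver in mice. It was at 6330, 4309, 3753, 4356 and 6596 CPM in WSD livers, against 821, 1122, 2702, 945 and 2389 CPM in CTRL livers. The lowest WSD library was above the highest CTRL library, and the SE of its log2 fold change was the largest of the 9 genes. The log2 fold change was 1.67 ± 0.49 (edgeR adjusted p = 0.00898), a 3.18-fold higher level. Of 12 markers of intestinal epithelium, 7 had 11 or fewer reads summed over the libraries of either group: Sis and Cdx2 had 0 reads over all WSD and CTRL libraries, Cdx1 had 0 reads in WSD and 1 read in CTRL libraries, Lct had 1 read in WSD and 2 reads in CTRL libraries, Muc2 had 8 reads in WSD and 6 reads in CTRL libraries, Cdh17 had 11 reads in WSD and 0 in CTRL libraries, and Alpi had 7 reads in WSD and 0 in CTRL libraries. The part of such RNA in the level of Apoa4 was not tested. Of the 12 intestinal markers 5 could be tested, and with TMM 2 were higher and 1 lower in WSD than in CTRL livers. With library totals and with TPM, 3 were higher and 0 lower. In WSD+beta-Glucan against CTRL+beta-Glucan livers, 3 were higher and 0 lower with TMM, library totals and TPM. The summed level of the 12 markers, mostly that of Fabp2, ran from 166 to 209 CPM in WSD and from 133 to 156 CPM in CTRL libraries. With beta-glucan this sum ran from 199 to 242 CPM in WSD+beta-Glucan and from 87.8 to 174 CPM in CTRL+beta-Glucan libraries.

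Apom was at 69.9, 62.8, 55.5, 65.7 and 57.7 CPM in WSD livers, against 183, 152, 286, 288 and 239 CPM in CTRL livers. The highest WSD library, at 69.9 CPM, lay below the lowest CTRL library, at 152 CPM. The log2 fold change of -1.88 ± 0.17 (edgeR adjusted p = 5.12e-08) left 27.1% of the CTRL level and was the largest in size among the 9 genes with TMM, while with library totals that of Apoa4 (2.16) was larger than that of Apom (-1.41). Among the 18 hepatocyte markers the log2 fold change nearest to it was that of Tat, at -1.86 ± 0.29 (edgeR adjusted p = 2.94e-05). Alb, the albumin gene, was at -1.12 ± 0.14 (edgeR adjusted p = 2.08e-06). The median of the 18 was smaller in size, at -0.58, with 13 called lower and 5 not called. Trf had 17000 CPM in WSD and 16800 CPM in CTRL livers, and Asgr2 193 and 190 CPM. The part of hepatocyte content in the lower levels of Apom, Apoa1 and Lcat was not tested.

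Lcat, which esterifies cholesterol on HDL, was at 284, 309, 354, 355 and 303 CPM in WSD livers, against 601, 578, 645, 589.5 and 553 CPM in CTRL livers. The groups were far apart relative to their spread, with means of 321 ± 32.2 CPM in WSD and 593 ± 34.0 CPM in CTRL livers. The log2 fold change was -0.89 ± 0.10 (edgeR adjusted p = 2.94e-07).

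The C apolipoproteins and the remodelling and uptake genes did not pass the test between WSD and CTRL livers. Apoc1 had 4586 ± 576 CPM in WSD and 3670 ± 574 CPM in CTRL livers (log2 fold change 0.32, 95% interval -0.01 to 0.66, edgeR adjusted p = 0.0965). Apoc3 had 1643 ± 131 CPM in WSD and 1705 ± 99.3 CPM in CTRL livers (log2 fold change -0.05, 95% interval -0.33 to 0.22, edgeR adjusted p = 0.751). Pltp had 109 ± 7.65 CPM in WSD and 99.2 ± 38.2 CPM in CTRL livers (log2 fold change 0.14, 95% interval -0.37 to 0.64, edgeR adjusted p = 0.663). Scarb1, the HDL receptor, was at 227, 244, 226, 269 and 234 CPM in WSD livers, against 217, 205, 208, 199.5 and 201 CPM in CTRL livers. Every WSD library was above every CTRL library, with a log2 fold change of 0.22 ± 0.10 and an edgeR adjusted p of 0.059. Scarb1 passed the threshold in 10 of 29 other settings, among them DESeq2 (adjusted p = 0.017) and edgeR without CTRL+beta-Glucan replicate 1 (adjusted p = 0.0409) or replicate 3 (adjusted p = 0.0241). Apoc1 passed in 7 of 29, among them edgeR without CTRL replicate 1 (log2 fold change 0.41, adjusted p = 0.0448).

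**Figure D2:**
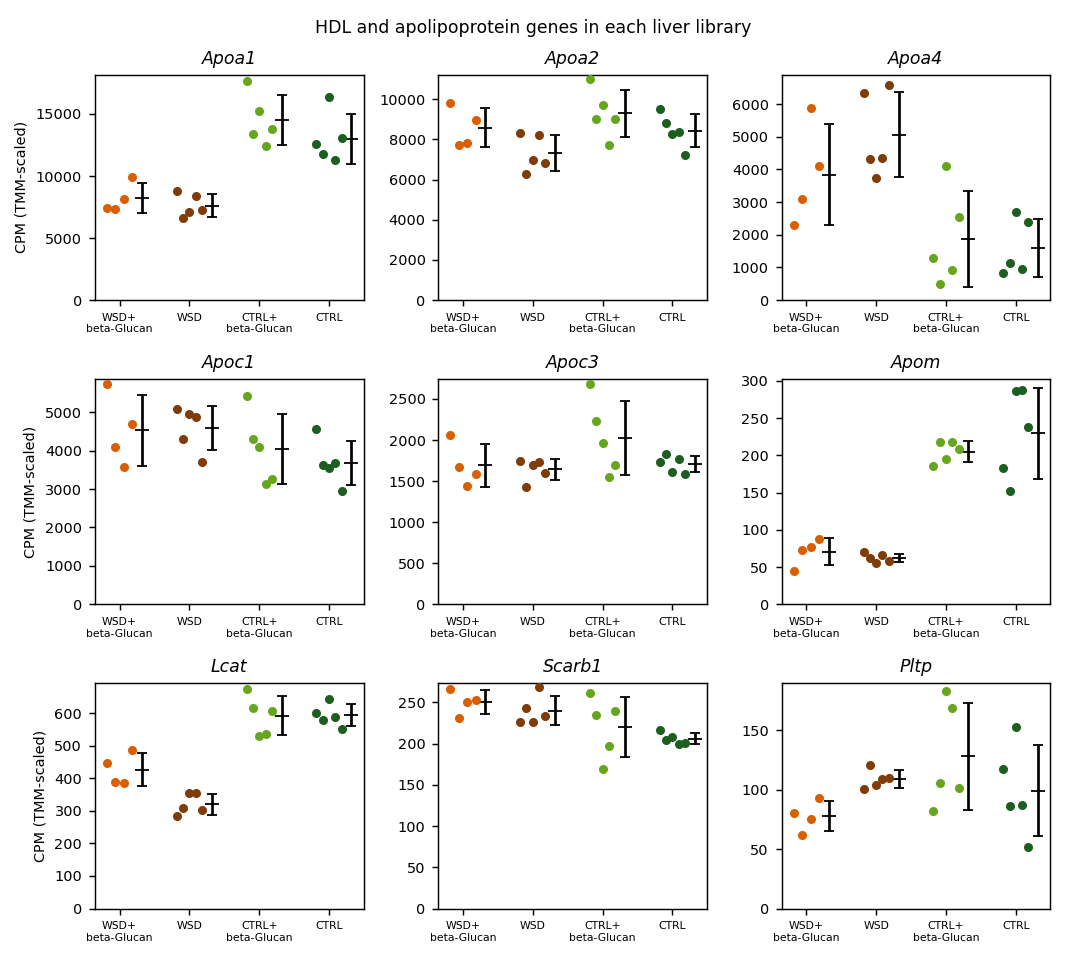
CPM (TMM-scaled, axes from 0) of the 9 genes in each library, with the mean and SD of each group at its right, for WSD+beta-Glucan (n = 4), WSD, CTRL+beta-Glucan and CTRL (n = 5 each). Apoa1, Apom and Lcat are lower in every WSD library than in every CTRL library, Apoa4 and Scarb1 are higher, and the WSD+beta-Glucan libraries of Lcat lie above those of WSD.

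Some of these values depend on how libraries are scaled. Scaled by library totals alone, the median of all tested genes moved to 0.43 on the log2 scale between WSD and CTRL livers, and to 0.38 in TPM, and the called genes split into 7874 higher and 617 lower with library totals, against 3528 and 3680 with TMM. Apom, Lcat and Apoa4 kept their direction and their call in all 29 other settings, with Lcat at -0.43 with library totals and -0.40 with TPM, against -0.89 with TMM. Apoa1 kept its direction in each of them and its call in 28, with a log2 fold change of -0.28 in TPM (limma adjusted p = 0.086). Relative to the moved median, Apoa2, at 0.26, was below it under library totals, Apoc3, at 0.41, was level with it, and Scarb1, at 0.69, Apoc1, at 0.78, and Pltp, at 0.60, were above it. The direction of Apoa2 and Apoc3 against 0 flipped in these 2 settings, and the flipped values passed the test for Apoc3 with library totals (edgeR adjusted p = 0.00276) and TPM (0.43, limma adjusted p = 0.00171) and for Apoa2 with library totals (edgeR adjusted p = 0.04). Of the 9 members 5 were called higher and 3 lower with library totals, where 62.5% of all genes were called, and 5 higher and 2 lower with TPM, where 60.0% were called.

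**Figure D3:**
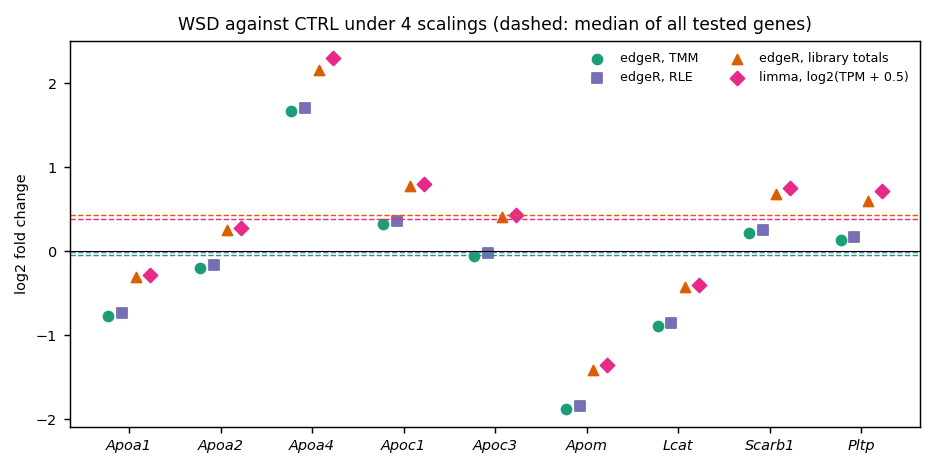
Log2 fold change of each gene between WSD and CTRL livers under TMM, RLE, library totals and TPM, with a dashed line at the median of all tested genes for each. The points of a gene move up together with the dashed lines, from -0.04 with TMM to 0.43 with library totals, and the order of the genes by fold change is the same with TMM, library totals and TPM.

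In the livers of mice given beta-glucan, WSD+beta-Glucan was set against CTRL+beta-Glucan, a comparison that shares no library with the one above. Both come from the same fit of all 19 libraries, with a shared estimate of spread, so their p-values are not independent. Apom, Apoa1, Lcat and Pltp were called lower, 4 of 9, and none was called higher, with TMM. With library totals 2 members were called lower (Apoa1 and Apom) and 2 higher (Apoc1 and Scarb1), and with TPM 2 were lower and 3 higher (Apoa4, Apoc1 and Scarb1). With TMM, of all tested genes 15.2% were called lower and 19.1% higher, 34.3% in all, and the libraries of both groups did not overlap for 25.2% of genes and for 3 members. The called genes split into 5137 higher and 385 lower with library totals and into 4787 higher and 303 lower with TPM.

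Apoa1 was at 7440, 7344, 8134 and 9953 CPM in WSD+beta-Glucan livers, against 17630, 13370, 15230, 12450 and 13790 CPM in CTRL+beta-Glucan livers. The groups did not overlap, and the log2 fold change was -0.82 ± 0.14 (edgeR adjusted p = 0.000214). Apom was at 44.8, 72.5, 77.4 and 88.3 CPM in WSD+beta-Glucan livers, against 185, 218, 195, 218 and 208 CPM in CTRL+beta-Glucan livers, again without overlap. Its log2 fold change was -1.53 ± 0.19 (edgeR adjusted p = 6.28e-06). Lcat was at 448, 388, 385 and 487 CPM in WSD+beta-Glucan livers, against 674, 616, 529.7, 537 and 607 CPM in CTRL+beta-Glucan livers, a log2 fold change of -0.47 ± 0.10 (edgeR adjusted p = 0.00131). With library totals the value for Lcat was -0.17 (edgeR adjusted p = 0.0837), and with TPM -0.14 (limma adjusted p = 0.213), below the all-gene medians of 0.28 and 0.26 in these settings.

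Pltp was at 80.5, 61.8, 75.7 and 93.1 CPM in WSD+beta-Glucan livers, against 82.2, 105, 183, 168 and 101 CPM in CTRL+beta-Glucan livers. The groups overlapped, and 2 CTRL+beta-Glucan libraries (replicates 3 and 4) stood above the rest. The log2 fold change was -0.72 ± 0.26 (edgeR adjusted p = 0.040), and it passed in 20 of 29 other settings. It did not pass without any one of WSD+beta-Glucan replicates 1, 2 and 3 (adjusted p = 0.0689, 0.116 and 0.084) or CTRL+beta-Glucan replicates 3 and 4 (adjusted p = 0.106 and 0.0933), with no filter on low counts (0.0766) or in a fit of only the libraries compared (0.0509). With library totals its log2 fold change was -0.46 (edgeR adjusted p = 0.22), and with TPM -0.32 (limma adjusted p = 0.391).

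Apoa4 was at 2302, 3085, 5882 and 4109 CPM in WSD+beta-Glucan livers, against 1298, 479.8, 4096, 916 and 2539 CPM in CTRL+beta-Glucan livers. Replicate 3 of CTRL+beta-Glucan was higher than 2 of the 4 WSD+beta-Glucan libraries. The log2 fold change was 1.04 ± 0.51 (edgeR adjusted p = 0.121), and without that library it was 1.56 (edgeR adjusted p = 0.0211). With all libraries kept it also passed in limma-voom (1.34, adjusted p = 0.0476) and in TPM (1.68, limma adjusted p = 0.0131). Apoa2 (-0.12, 95% interval -0.38 to 0.15), Apoc1 (0.16, -0.19 to 0.52), Apoc3 (-0.26, -0.55 to 0.03) and Scarb1 (0.18, -0.03 to 0.40) were not called in log2 fold change with TMM. With library totals Scarb1 was at 0.50 (edgeR adjusted p = 0.000135) and Apoc1 at 0.47 (edgeR adjusted p = 0.0142), and with TPM at 0.58 and 0.52 (limma adjusted p = 0.000117 and 0.0173), against all-gene medians of 0.28 and 0.26.

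With beta-glucan set against none within each diet, no member passed the threshold. Between WSD+beta-Glucan and WSD livers edgeR called 53 of 13594 genes (0.39%), and 2118 had an unadjusted p under 0.05. The libraries of both groups did not overlap for 7.42% of all genes, and among the 9 members for Lcat and Pltp. Lcat was at 448, 388, 385 and 487 CPM in WSD+beta-Glucan livers, against 284, 309, 354, 355 and 303 CPM in WSD livers. Each WSD+beta-Glucan library was above each WSD library, with a log2 fold change of 0.41 ± 0.10 (95% interval 0.20 to 0.62, edgeR adjusted p = 0.0717). DESeq2 and limma-voom called it (adjusted p = 0.00624 and 0.0237), and over 29 other settings the adjusted p ran from 0.00624 to 0.321. Pltp was at 80.5, 61.8, 75.7 and 93.1 CPM in WSD+beta-Glucan livers, against 101, 121, 104, 109 and 109.8 CPM in WSD livers, with each WSD+beta-Glucan library below each WSD library. Its log2 fold change was -0.49 ± 0.26 (edgeR adjusted p = 0.37), and in a fit of these 9 libraries alone it was -0.50 (edgeR adjusted p = 0.0281).

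The other 7 members had log2 fold changes between -0.40 (Apoa4) and 0.23 (Apoa2) for WSD+beta-Glucan against WSD, with edgeR adjusted p from 0.386 to 0.972. For Apom the value was 0.18, with a 95% interval of -0.19 to 0.56, and for Apoa1 0.11, with an interval of -0.18 to 0.40. For Apoa4 the interval ran from -1.48 to 0.68.

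Between CTRL+beta-Glucan and CTRL livers edgeR called 1 of 13594 genes (0.00736%), 775 had an unadjusted p under 0.05, and the libraries of both groups did not overlap for 0.486%. None of the 9 members was called by edgeR, DESeq2 or limma-voom, none had an unadjusted p under 0.05 in edgeR, and the libraries overlapped for all 9. The log2 fold changes ran from -0.16 (Apom) to 0.37 (Pltp), and that of Lcat was 0.00, with a 95% interval of -0.20 to 0.20. The difference between both beta-glucan effects was called for 1 gene (0.00736%; 1865 at an unadjusted p under 0.05) and for no member. Lcat had a difference of 0.41 ± 0.14 (edgeR adjusted p = 0.233) and Pltp of -0.86 ± 0.35 (edgeR adjusted p = 0.314), on the log2 scale.

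**Figure D4:**
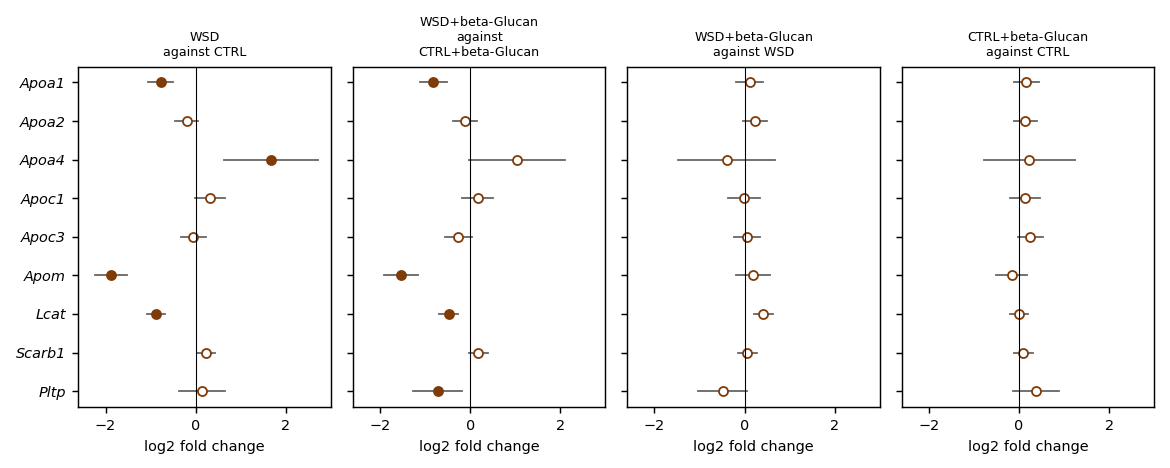
Log2 fold change of each gene (point, filled where the edgeR adjusted p is under 0.05) with its 95% interval (line) in 4 comparisons. Apoa1, Apom and Lcat are filled and left of 0 in both WSD comparisons, and no point is filled in the beta-glucan comparisons.

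Most members are made from 1 dominant transcript. Of their 36 annotated transcripts in the files, 11 held at least 5% of the gene's TPM on average, and Apoa4, Apom and Lcat had a single one. The 2 main transcripts of Scarb1 differ in their protein. Transcript Scarb1-201 has 13 exons and encodes scavenger receptor BI (509 codons), and Scarb1-202 lacks exon 12 and encodes the form with the alternative cytoplasmic tail known as SR-BII (506 codons). Exon 12 is 129 bases long, lies at chr5:125281105-125281233 on the minus strand (GRCm38, GENCODE M21), and is shown because it separates the transcripts.
Scarb1 exon 12: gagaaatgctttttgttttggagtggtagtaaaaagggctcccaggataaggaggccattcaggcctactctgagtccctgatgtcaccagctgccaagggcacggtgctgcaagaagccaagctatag

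Scarb1-202 held 21, 20.9, 23.1, 28.4 and 17.9% of Scarb1 TPM in WSD livers, against 35.7, 35.5, 33.7, 33.4 and 35.5% in CTRL livers. Every WSD library had a smaller share than every CTRL library, with means of 22.2 ± 3.9% in WSD and 34.8 ± 1.1% in CTRL livers. The two-sided exact permutation p was 0.00794, the smallest that 5 against 5 libraries can give, and after adjustment over the 32 tests made on transcript shares it was 0.127. Scarb1-201 held 71.0, 69.0, 69.3, 64.4 and 75.0% in WSD livers, against 60.2, 61.5, 61.3, 62.6 and 62.0% in CTRL livers, also without overlap (exact permutation p = 0.00794, adjusted p = 0.127). A further transcript, Scarb1-210, was below the mean share set for testing. It held 3.92 to 6.98% in WSD and 0.0 to 2.17% in CTRL livers, on 17 to 36 reads per WSD and 0 to 6 reads per CTRL library.

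With beta-glucan the share of Scarb1-202 was 24.9, 26.1, 27.2 and 27.1% in WSD+beta-Glucan livers, against 35.2, 36.0, 28.9, 30.8 and 28.5% in CTRL+beta-Glucan livers. The groups did not overlap, and the exact permutation p was 0.0159, the smallest that 4 against 5 libraries can give (adjusted p = 0.127). Without the libraries titled 37, 39 and 40 the difference was -2.56 percentage points, against -5.53 with them. The 2 beta-glucan comparisons gave a difference of 4.08 points between WSD+beta-Glucan and WSD (exact permutation p = 0.0952) and of -2.91 points between CTRL+beta-Glucan and CTRL (exact permutation p = 0.127). None of the 32 exact tests passed after adjustment. Given the smallest p that these group sizes allow, a fully separated transcript could pass only if several other tests were also near that floor. The lack of passing tests therefore does not show that the shares were alike.

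A test across all transcripts was added after these shares had been seen. It was limma's diffSplice, which compares a transcript with the other transcripts of its gene and adjusts over 25956 transcripts. It called Scarb1-202 (log2 difference -0.85, adjusted p = 0.00059) and Scarb1-201 (0.72, adjusted p = 0.00391) between WSD and CTRL livers, where 1004 transcripts (3.87%) were called. Between WSD+beta-Glucan and CTRL+beta-Glucan livers it called 84 transcripts (0.324%), and Scarb1-202 was not among them (log2 difference -0.38, adjusted p = 0.553). The split between transcripts that share most of their exons is an estimate of the quantification, and reads across exon 12 were not analysed here.

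**Figure D5:**
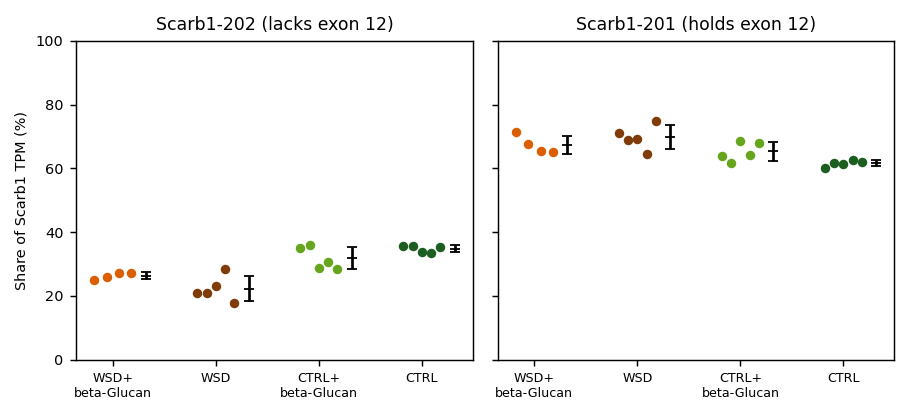
Share of Scarb1 TPM (%) held by Scarb1-202, which lacks exon 12, and by Scarb1-201, which holds it, in each library, with the mean and SD of each group at its right. For Scarb1-202 the WSD libraries lie between 17.9 and 28.4% and the CTRL libraries between 33.4 and 35.7%.

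Of the members, 4 sit in 2 apolipoprotein clusters (Apoa1, Apoc3 and Apoa4 in one, Apoc1 in the other), and their neighbours were set beside them for that position, with their values known. In the chromosome 9 cluster, Apoa5 (chr9:46268633-46271919), which promotes triglyceride clearance, was at 1050 CPM in WSD and 2430 CPM in CTRL livers (log2 fold change -1.22 ± 0.12, edgeR adjusted p = 8.45e-08). With TMM the cluster thus held 2 genes that were lower (Apoa1, -0.77, and Apoa5, -1.22), 1 that was higher (Apoa4, 1.67) and Apoc3 (-0.05), which was not called, in WSD against CTRL. With library totals Apoc3 was called higher (0.41, edgeR adjusted p = 0.00276), against a median of 0.43 for all genes. The values of the neighbours in both clusters, and of the single genes named from the lists below, are given with TMM only. Whether each of those single genes keeps its call with library totals is not shown. In the chromosome 7 cluster Apoc1 (chr7:19689481-19692660) lies beside Apoe, Apoc4 and Apoc2. Apoe, the ligand for remnant receptors, had 25400 CPM in WSD and 19800 CPM in CTRL livers (0.36 ± 0.13, edgeR adjusted p = 0.0223). Apoc2, the cofactor of lipoprotein lipase, had 628 CPM in WSD and 296 CPM in CTRL livers (1.09 ± 0.12, edgeR adjusted p = 6.19e-07), and Apoc4 had 636 CPM in WSD and 913 CPM in CTRL livers (-0.52 ± 0.12, edgeR adjusted p = 0.00153). Apoc2 and Apoc4 both overlap the gene model Gm44805 on the same strand, so their reads may be split between them. Apoa4 and Lcat overlap antisense gene models and Scarb1 a same-strand one, all not analysed here, and Pltp overlaps Ctsa on the opposite strand, which had 2881 to 5601 reads per library. The kit marks strand, but the strand setting of the quantification is not given in the sources used here.

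Among the 12 tested of 14 other apolipoprotein genes and genes of apolipoprotein B assembly, 4 were higher and 6 lower in WSD than in CTRL livers (median -0.18, all genes -0.04), while with library totals 6 were higher and 2 lower (median 0.28, all genes 0.43). Besides Apoa5, the smallest p-values were those of Apobec1, the editing enzyme of apolipoprotein B mRNA, with 25.3 CPM in WSD and 10.5 CPM in CTRL livers, and Mttp, the transfer protein that lipidates apolipoprotein B, with 175 CPM in WSD and 376 CPM in CTRL livers. Between WSD+beta-Glucan and CTRL+beta-Glucan livers 3 of the 12 were higher and 5 lower with TMM, and 6 higher and 1 lower with library totals. None was called in either beta-glucan comparison within a diet.

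Among 13 other plasma proteins carried on HDL, 2 were higher and 5 lower in WSD than in CTRL livers (median -0.46), and with library totals 3 were higher and 2 lower (median -0.01). Pon3, a paraoxonase, was lower (log2 fold change -0.65 ± 0.09, edgeR adjusted p = 8.19e-06), and Pla2g7, the platelet-activating factor acetylhydrolase, was higher (2.81 ± 0.38, edgeR adjusted p = 8.47e-06). Serpina1a was lower (-1.22 ± 0.13, edgeR adjusted p = 2.64e-07), with the limit that its near-identical gene copies share reads. Pla2g7 is a gene that macrophages express, and its level, 17.9 CPM in WSD and 2.56 CPM in CTRL livers, moved with the macrophage markers, 14 of 16 of which were higher in WSD and none lower. Their part in this result was not tested. Between WSD+beta-Glucan and CTRL+beta-Glucan livers 1 of the 13 was higher and 2 were lower with TMM, and 3 were higher and 1 lower with library totals.

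Of 13 genes of HDL formation, remodelling and sterol efflux, 6 were higher and 3 lower in WSD than in CTRL livers (median 0.00), and with library totals 9 were higher and 3 lower (median 0.47). Lpl, lipoprotein lipase, had 178 CPM in WSD and 11.1 CPM in CTRL livers (4.01 ± 0.17, edgeR adjusted p = 4.86e-12), and Abcg1, an efflux pump that loads HDL, 24.9 CPM in WSD and 3.59 CPM in CTRL livers (2.79 ± 0.17, edgeR adjusted p = 2.97e-10). Bmp1, a protease that trims pro-apolipoprotein A-I, had 90.6 CPM in WSD and 163 CPM in CTRL livers (-0.85 ± 0.11, edgeR adjusted p = 3.94e-06). Between WSD+beta-Glucan and CTRL+beta-Glucan livers 4 were higher and 3 lower with TMM, and 5 higher and 2 lower with library totals. Lpl and Abcg1 were also the 2 genes of the list called lower in WSD+beta-Glucan than in WSD livers. Lpl had 75.9 CPM in WSD+beta-Glucan and 178 CPM in WSD livers (-1.23 ± 0.16, edgeR adjusted p = 0.00238). Abcg1 had 13.3 CPM in WSD+beta-Glucan and 24.9 CPM in WSD livers (-0.91 ± 0.16, edgeR adjusted p = 0.0261). The other 11 were not called. Macrophages express both, and 3 of the 16 macrophage markers (Trem2, Gpnmb and Itgax) were also lower in WSD+beta-Glucan than in WSD livers, none was higher, and their part was not tested.

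Of 9 tested lipoprotein receptor genes among 12 listed, 3 were higher and 5 lower in WSD than in CTRL livers with TMM (median -0.25) and 5 higher and 2 lower with library totals (median 0.22), and 3 were higher and 3 lower in WSD+beta-Glucan than in CTRL+beta-Glucan livers with TMM, against 4 and 2 with library totals. Cd36, a fatty acid and lipoprotein scavenger receptor, had the smallest p, with 159 CPM in WSD and 45.8 CPM in CTRL livers (log2 fold change 1.80 ± 0.24, edgeR adjusted p = 8.66e-06).

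Of 22 transcription factors that act on apolipoprotein genes, 14 were lower and 2 higher in WSD than in CTRL livers with TMM (median -0.39), and 4 lower and 7 higher with library totals (median 0.08). With TMM, 11 were lower and 1 was higher in WSD+beta-Glucan than in CTRL+beta-Glucan livers, and with library totals 1 was lower and 2 were higher. Creb3l3, the liver factor CREBH, which activates Apoa4 in mice, had 285 CPM in WSD and 491 CPM in CTRL livers (-0.79 ± 0.09, edgeR adjusted p = 9.06e-07). The activity of CREBH was not measured, and its part in the level of Apoa4 was not tested. Srebf1 had 138 CPM in WSD and 42.0 CPM in CTRL livers (1.71 ± 0.18, edgeR adjusted p = 2.39e-07), and Srebf2 27.6 CPM in WSD and 49.0 CPM in CTRL livers (-0.83 ± 0.10, edgeR adjusted p = 2.15e-06). Hnf4a, the nuclear receptor that activates many apolipoprotein genes, had 427 CPM in WSD and 726 CPM in CTRL livers (-0.77 ± 0.14, edgeR adjusted p = 9.09e-05). It was chosen after its values were seen. In WSD+beta-Glucan livers it had 468 CPM, against 704 CPM in CTRL+beta-Glucan livers.

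Of 11 genes that respond to fasting or to CREBH, 9 were lower and 1, Cidec, was higher in WSD than in CTRL livers (median -1.21; with library totals 7 lower and 2 higher, median -0.74), and 5 were lower and none higher in WSD+beta-Glucan than in CTRL+beta-Glucan livers with TMM, against 2 and 1 with library totals. Pck1, the gluconeogenic enzyme, had 1140 CPM in WSD and 5590 CPM in CTRL livers (edgeR adjusted p = 8.79e-07), and Cyp4a14, a fatty acid hydroxylase, 604 CPM in WSD and 6260 CPM in CTRL livers (edgeR adjusted p = 1.23e-05). Apoa4, like Cidec, was higher in WSD livers, and the part of fasting or CREBH in these levels was not tested.

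The genes whose profile over the 19 libraries was most like that of a member were found by the root mean square (RMS) difference in centred log2 CPM among 12817 named protein-coding genes, as a description. For Apoa4, whose own SD was 1.12, the closest was Cidec, which encodes a protein of large lipid droplets, with an RMS difference of 0.49. Cidec was at 92.8, 118, 167 and 114 CPM in WSD+beta-Glucan, 148, 112, 102, 138 and 156 CPM in WSD, 13.5, 5.77, 106, 20.2 and 63.0 CPM in CTRL+beta-Glucan and 21.3, 50.2, 81.9, 22.4 and 60.0 CPM in CTRL livers. Its highest libraries among CTRL+beta-Glucan and among CTRL, replicate 3 in both, were those in which Apoa4 was highest. Cidec was picked for likeness to Apoa4 over these same libraries, so such a match largely follows from the choice.

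For Apom, whose own SD was 0.92, the closest were Stard4, a sterol carrier (RMS difference 0.27), G6pc, the glucose-6-phosphatase that releases glucose (0.28), and Sox12 (0.29). Stard4 was at 8.40, 8.45, 7.88 and 11.2 CPM in WSD+beta-Glucan, 6.27, 8.79, 6.88, 7.33 and 6.83 CPM in WSD, 26.4, 37.9, 19.7, 29.5 and 27.1 CPM in CTRL+beta-Glucan and 26.8, 17.6, 27.2, 29.2 and 30.4 CPM in CTRL livers. G6pc was at 218, 161, 184, 216 and 161 CPM in WSD, against 731, 487, 719.6, 721 and 798 CPM in CTRL livers. In both genes, as in Apom, the WSD and CTRL libraries did not overlap, as was so for 38.4% of all tested genes. Both were picked for likeness to Apom over these same libraries, so this shared separation largely follows from the choice.

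Lcat was closest to Tfr2, a transferrin receptor of hepatocytes (0.09), Itih1 and Hagh (both 0.10), with an own SD of 0.41. Apoa1 was closest to Ccnd3 and Btd (both 0.14), and Apoa2 to Ndufa4, Hint2 and Atp5j (each 0.09), of which Ndufa4 and Atp5j are of the respiratory chain and ATP synthase. Pltp, with an own SD of 0.45, had no close match, the nearest being Cldn5, an endothelial junction gene (0.33). Among the members themselves the nearest pairs were Apoa2 with Apoc3 (0.14) and Apoa1 with Lcat (0.21), and the farthest was Apoa4 with Apom (1.81).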

How the data were processed

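PureLink extracts and a stranded TruSeq mRNA kit were used, per the labels' protocols. Salmon 1.10.1, build GRCm39 and DESeq2 1.38.3 are named in the submitters' processing notes, with no role or order. The transcript set and index are not given in the sources used here. The deposited files hold, per transcript and library, estimated counts (expected counts, not scaled between libraries), TPM and, as another unit, the effective length, in the column layout of Salmon.

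Of 116546 transcripts, 115977 (99.51%) matched GENCODE M21 (GRCm38) by identifier, were summed to 35498 genes and rounded; the rest held 0.0623 to 0.1095% of reads per library. Libraries were grouped by the treatment label, and replicates are numbered in deposition order, so a number pairs no samples. Genes passing filterByExpr (13594) were fitted in R 4.3.3 with edgeR 4.0.16: TMM, a mean per group over all 19 libraries, robust quasi-likelihood F test, Benjamini-Hochberg adjustment over all genes within each of 5 contrasts. Log2 CPM used a prior count of 2. The fits were tested on simulated data. Transcript shares (mean of at least 5%) were compared by two-sided exact permutation tests (scipy 1.17.1). Alternatives were RLE, library totals, no filter, DESeq2 1.42.0, limma-voom and limma 3.58.1 on log2(TPM + 0.5), effective lengths as offset, fits of only the libraries compared, leaving out each library, and leaving out or adding a term for 3 libraries; limma diffSplice and the lists under other scalings were added after seeing the data. Named genes are the 9 members, from each list the 3 with the smallest p between WSD and CTRL and those of the 3 lipoprotein lists called with beta-glucan, and per member the 3 with the smallest RMS difference, of which the text quotes a selection. Some genes that this rule names are not reported here. The members and lists were chosen with earlier results of these data known.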

Additional observations from a re-analysis of the deposited data

How the results depend on the processing

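No paired analysis was possible because the replicate numbers are deposition order only and the labels name no shared animal or batch. Over single genes and transcripts, 1295 alternative values kept direction and side of the threshold, 28 newly passed with the same direction, 12 no longer passed and 53 changed sign, 3 of which also passed. The cause was not tested where a value moved, except that library totals and TPM shift the median of all genes.

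The count of members called between WSD and CTRL was 8 with library totals (62.5% of all genes called) and 7 with TPM (60.0%), against 4. Between WSD+beta-Glucan and WSD it was 1 with DESeq2, limma-voom or only the libraries compared, against 0. Of all genes, WSD+beta-Glucan against WSD gave 53, but 436 with DESeq2, 427 with limma-voom, 457 with only the libraries compared, 294 with library totals, 584 with TPM, 258 with a term for the libraries titled 37, 39 and 40, 35 with effective length as offset, and 2 to 184 with a library left out (2 or 3 without any one of WSD+beta-Glucan replicates 1, 2 and 4 and WSD replicates 1, 2 and 5, 33 without WSD replicate 3, and 85, 184 and 97 without CTRL+beta-Glucan replicates 1 and 5 and CTRL replicate 1). CTRL+beta-Glucan against CTRL gave 1, but 5 with DESeq2 or without those 3 libraries, 2 with a term for them, 0 with library totals, TPM or only the libraries compared, and 0 to 2 with a library left out. The difference of both effects gave 1, but 139 with DESeq2, 154 with TPM, 3 with library totals, 2 with the term or without the 3 libraries, and 0 to 81 with a library left out. The added diffSplice test called 2 transcripts, the exact tests 0. With these group sizes the exact tests could pass only if several of them were near their smallest p.

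These log2 fold changes changed sign; none was called with TMM, and Apoa2 (library totals) and Apoc3 (library totals and TPM) in WSD against CTRL were called with the other sign. With library totals and TPM the values were 0.26 and 0.27 (Apoa2) and 0.41 and 0.43 (Apoc3) for WSD against CTRL; 0.19 and 0.23 (Apoa2) and 0.052 and 0.101 (Apoc3) for WSD+beta-Glucan set against CTRL+beta-Glucan; -0.052 and -0.033 (Apoa1), -0.12 and -0.10 (Apoc3) and -0.096 and -0.094 (Scarb1) for WSD+beta-Glucan against WSD; and -0.071 and -0.041 (Apoa2) for the difference of effects. With a term for, and without, the 3 libraries, Apoc3 was -0.083 and -0.065 in WSD+beta-Glucan against WSD, Apoc1 -0.068 and -0.068 and Scarb1 -0.001 and -0.031 in CTRL+beta-Glucan against CTRL, and Scarb1 0.005 and 0.06 in the difference. Without them Apoa1 was 0.065 in the difference, and the share of Scarb1-201 differed by -1.005 points between WSD+beta-Glucan and CTRL+beta-Glucan. Lcat in CTRL+beta-Glucan against CTRL was 0.007 with DESeq2 and RLE, 0 with effective length, 0.012 with TPM and no filter, and 0.003 with only the libraries compared. Apoc1 was 0.003 in WSD+beta-Glucan against WSD with effective length. With a library left out, ranges that crossed 0 were, for WSD against CTRL, -0.029 to 0.346 (Pltp); for WSD+beta-Glucan against WSD, -0.154 to 0.079 (Apoc1) and -0.065 to 0.112 (Apoc3); for CTRL+beta-Glucan against CTRL, -0.287 to 0.50 (Apoa4) and -0.052 to 0.036 (Lcat); and for the difference, -0.152 to 0.032 (Apoa1) and -0.118 to 0.032 (Scarb1).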
